A study of Mus musculus with 18 samples.

Results

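The 42 genes described here are induced by interferon or serve the MHC class I pathway, and were followed through 18 RNA sequencing libraries of mouse CD4+ T cells. They were listed by gene symbol, and all distinct entries of a symbol in a deposited table were summed. Of the 22783 symbols of experiment 1, 37 were listed genes with an entry of their own, and 4 listed genes (Ifi47, Irf9, Tapbp and Psmb10) occurred only in entries joined with an overlapping gene. Of the 16639 symbols of experiment 2, 41 were listed genes. One listed gene is not analysed here. Testing required a mean of 1 FPKM or more across a table. FPKM counts fragments per length of transcript, scaled to the mapped fragments of the library. In experiment 1 this left 34 of the listed genes and in experiment 2 it left 33.

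All libraries came from splenic naive CD4+ T cells of C57BL/6 mice, isolated by cell sorting, stimulated through CD3 and CD28 and collected on day 4. In experiment 1 the tKO cells were Egln1fl/fl Egln2fl/fl Egln3fl/fl Cd4Cre and the controls, called WT, were Cd4Cre. Both genotypes thus carry the Cre, which is active from developing thymocytes onward, so that deletion would precede the sort. The 3 floxed genes encode the PHD proteins, oxygen-dependent prolyl hydroxylases that mark HIF transcription factors for destruction. Both genotypes were grown without TGF-b, a cytokine that restrains effector T cells and induces regulatory T cells, or with it at 0.2 or 2 ng/ml. Each of these 6 groups has 2 libraries. In experiment 2 wildtype cells received 2 ng/ml TGF-b with either vehicle or 1 mM DMOG, an inhibitor of PHD proteins and of related dioxygenases, with 3 libraries a group. No label says that replicates came from separate mice or cultures. The 2 tKO replicates differ in Y chromosome genes, as given below, and so do not share one mouse. For the other groups the p-values measure a spread between libraries that may be technical.

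Interferons signal through JAK kinases and STAT proteins. Type I interferons activate a complex with STAT2 and IRF9 that binds the interferon-stimulated response element (ISRE), and interferon gamma acts through the gamma-activated site (GAS) and induces IRF1. The induced proteins sense and restrict viruses, damage the vacuoles of intracellular microbes, or cut, transport and load peptides onto MHC class I molecules. In T cells, interferon gamma is both a product of type 1 effector cells and a signal to which they respond.

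The start sites of many of the listed genes carry these elements, and 7 windows are shown because the expression results turn on these genes. Windows reach from 250 bases before to 50 bases after the annotated start (RefSeq, GRCm38.p6) and were available for 35 listed genes. An ISRE-like match, GAAANNGAAA on either strand, was found for 16 of the 35 genes (45.7%) and for 3.99% of all 27025 genes with a window. A GAS-like match, TTCNNNGAA, was found for 10 of the 35 (28.6%) and for 9.55% of all genes. The core of the hypoxia response element that HIF binds, ACGTG or GCGTG on either strand, was found for 18 of the 35 (51.4%) and for 46.7% of all genes. Matches describe letters and not occupied sites. Capitals in the sequences below, written 5′ to 3′ in the direction of transcription, mark ISRE-like and GAS-like matches. Isg15 (chr4:156200769-156201068, minus strand) has overlapping ISRE-like matches that begin 78, 72 and 66 bases before the start. Bst2 (chr8:71537423-71537722, minus strand) has them at 130 and 124 bases before the start, and a GAS-like match at 136 that overlaps the first. Gbp2 (chr3:142620413-142620712, plus strand) has 1 ISRE-like match, at 59 bases before the start. Igtp (chr11:58199306-58199605, plus strand) has a GAS-like match at 45 and an ISRE-like match at 34 bases before the start. Ifitm3 (chr7:141010695-141010994, minus strand) has ISRE-like matches at 2 and 19 bases after the start, the latter overlapping a GAS-like match at 13. Irf1 (chr11:53769764-53770063, plus strand) has a GAS-like match at 90 bases before the start and no ISRE-like match. Tap1 (chr17:34187306-34187605, plus strand) has neither within this window, which overlaps that of the divergent neighbour Psmb9.
Isg15: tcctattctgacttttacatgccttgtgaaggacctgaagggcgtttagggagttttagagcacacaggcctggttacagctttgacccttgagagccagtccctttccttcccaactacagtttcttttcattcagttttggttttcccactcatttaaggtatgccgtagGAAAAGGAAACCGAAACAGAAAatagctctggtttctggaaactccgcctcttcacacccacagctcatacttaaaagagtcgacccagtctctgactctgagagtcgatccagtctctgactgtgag
Bst2: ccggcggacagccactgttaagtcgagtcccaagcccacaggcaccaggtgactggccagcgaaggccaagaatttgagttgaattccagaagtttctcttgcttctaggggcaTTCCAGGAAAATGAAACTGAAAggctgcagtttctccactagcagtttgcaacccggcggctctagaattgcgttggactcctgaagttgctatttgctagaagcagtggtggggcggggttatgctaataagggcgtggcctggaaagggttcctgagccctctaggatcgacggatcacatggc
Gbp2: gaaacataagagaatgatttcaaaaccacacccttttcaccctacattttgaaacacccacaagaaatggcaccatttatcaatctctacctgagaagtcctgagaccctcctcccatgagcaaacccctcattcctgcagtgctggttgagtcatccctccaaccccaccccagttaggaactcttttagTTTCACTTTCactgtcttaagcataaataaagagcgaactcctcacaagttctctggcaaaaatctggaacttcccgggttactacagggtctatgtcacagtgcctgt
Igtp: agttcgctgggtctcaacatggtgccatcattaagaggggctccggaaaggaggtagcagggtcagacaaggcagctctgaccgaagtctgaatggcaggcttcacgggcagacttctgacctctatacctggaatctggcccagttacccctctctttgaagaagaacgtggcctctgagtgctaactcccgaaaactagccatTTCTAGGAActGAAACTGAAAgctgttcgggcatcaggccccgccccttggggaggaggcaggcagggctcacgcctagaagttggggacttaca
Ifitm3: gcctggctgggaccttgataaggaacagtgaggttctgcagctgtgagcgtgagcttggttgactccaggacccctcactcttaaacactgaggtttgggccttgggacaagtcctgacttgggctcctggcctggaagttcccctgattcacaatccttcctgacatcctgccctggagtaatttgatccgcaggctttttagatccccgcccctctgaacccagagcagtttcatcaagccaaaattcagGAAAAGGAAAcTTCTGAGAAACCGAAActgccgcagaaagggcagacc
Irf1: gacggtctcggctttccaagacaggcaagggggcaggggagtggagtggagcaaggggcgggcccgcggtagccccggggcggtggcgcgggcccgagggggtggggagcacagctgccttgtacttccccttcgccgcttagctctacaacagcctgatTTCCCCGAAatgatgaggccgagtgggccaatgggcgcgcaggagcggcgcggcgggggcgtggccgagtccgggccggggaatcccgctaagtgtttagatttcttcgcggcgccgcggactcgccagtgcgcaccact
Tap1: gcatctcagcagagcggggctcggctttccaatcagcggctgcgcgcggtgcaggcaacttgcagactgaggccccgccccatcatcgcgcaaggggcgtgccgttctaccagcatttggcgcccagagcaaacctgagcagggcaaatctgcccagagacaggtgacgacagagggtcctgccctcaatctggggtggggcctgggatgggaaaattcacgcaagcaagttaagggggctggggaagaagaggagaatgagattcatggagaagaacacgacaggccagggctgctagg

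Some facts of the libraries bear on every value below. All FPKM values of a library summed to 630548 to 676963 in WT and to 711375 to 856147 in tKO at 0 and 0.2 ng/ml. In tKO at 2 ng/ml the sums were 563272 and 548974. They were 386382 to 417126 with vehicle and 429789 to 443888 with DMOG. The part of these differences in the results was not tested. Absolute depth is unknown because only FPKM values were used, and the relative number of reads per FPKM lay between 0.699 and 1.23 in experiment 1, lowest in tKO at 0.2 ng/ml, replicate 2, and between 0.914 and 1.16 in experiment 2. Whole-gene FPKM cannot show the excised exons, so the floxed genes do not check the genotype: Egln1 ran from 20.4 to 44.3 FPKM in WT and from 92.8 to 121.5 in tKO. The summed level of the T cell markers (7 of 8 in the table) was 1750 to 2364 FPKM in WT and 1348 to 1728 in tKO, and 2085 to 2463 with vehicle and 816 to 1138 with DMOG. B cell markers summed to 14.8 to 63.3 FPKM in WT and 15.4 to 84.2 in tKO, and to 7.64 to 12.4 with vehicle and 0.858 to 1.22 with DMOG. Myeloid and dendritic cell markers (12 of 14) summed to 2.55 to 9.22 FPKM in WT and 2.72 to 7.18 in tKO, with Lyz2 and Clec9a listed at 0 throughout. The 1 of them that was tested was called higher in tKO over the doses (log2 fold change 1.29) and at 2 ng/ml (2.16). NK cell markers summed to at most 2.86 FPKM in any library of experiment 1. In experiment 2 the myeloid and dendritic sum (10 of 14) was 8.39 to 8.41 FPKM with vehicle and 1.76 to 2.96 with DMOG. The CD8 T cell markers Cd8a and Cd8b1 summed to 4.02 to 8.84 FPKM in WT and 7.49 to 14.6 in tKO. At 0.2 ng/ml WT stood at 4.19 and 6.51 and tKO at 13.4 and 14.0. At 2 ng/ml WT stood at 4.02 and 8.84 and tKO at 9.85 and 14.6. Cd8b1, the one tested in experiment 1, was called higher in tKO over the doses (log2 fold change 0.77 ± 0.21, limma adjusted p = 0.0131) and at 0.2 ng/ml (1.24 ± 0.36, limma adjusted p = 0.0330). It was not called at 0 ng/ml (0.30 ± 0.36, limma adjusted p = 0.690) or at 2 ng/ml (0.78 ± 0.36, limma adjusted p = 0.161). With DMOG the 2 CD8 markers summed to 6.86 to 10.85 FPKM against 6.325 to 8.49 with vehicle, and Cd8a was called higher (1.25 ± 0.12, limma adjusted p = 1.43e-07). Cd8b1 went the other way with DMOG and was not called (-0.22 ± 0.14, limma adjusted p = 0.202). Genes of the Y chromosome summed to 60.5, 67.7 and 63.6 FPKM in tKO replicate 1 at 0, 0.2 and 2 ng/ml and to no more than 0.00800 in any other library of that experiment. The part of these marker differences in the results was not tested, and in bulk RNA fewer cells of a type and less RNA per cell cannot be told apart.

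Averaged over the 3 doses, most of the pathway was more abundant in tKO than in WT cells. Of the 34 genes tested, 20 rose and 3 fell, where 13.9% of all 10354 genes tested rose and 13.3% fell. The median log2 fold change of the 34 genes was 0.66, beside -0.02 for all genes. All fold changes are differences of log2(FPKM + 1), given ± SE, and all adjusted p-values come from limma with Benjamini-Hochberg adjustment over all genes of a comparison. The counts differed between the doses. At 0 ng/ml 3 genes were higher and 3 lower in tKO (background 5.34% and 4.30%), at 0.2 ng/ml 19 were higher and 0 lower (background 9.11% and 6.38%), and at 2 ng/ml 9 were higher and 0 lower (background 7.82% and 8.16%). The medians of the 34 genes were 0.16, 1.12 and 0.44 in that order. The CD8 marker sums of the genotypes overlapped at 0 ng/ml. At 0.2 and 2 ng/ml both tKO sums were above both WT sums, as were the values of 28.1% and 29.1% of all genes tested. The part of the CD8 markers in these counts was not tested. Ifit3 and Ifitm1 reached the limit for testing only through the WT libraries at 0 ng/ml, so that a difference from that group was built in. Without both, 20 of 32 genes rose and 2 fell over the doses. The 6 libraries of a genotype carry only 2 replicate numbers across the doses, so the average over doses may overstate its certainty. Without the 3 WT libraries of replicate 2, the count over doses was 14 in place of 23, and at 2 ng/ml it was 5 in place of 9 without WT replicate 2 or without tKO replicate 1 of that dose.

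**Figure D1:**
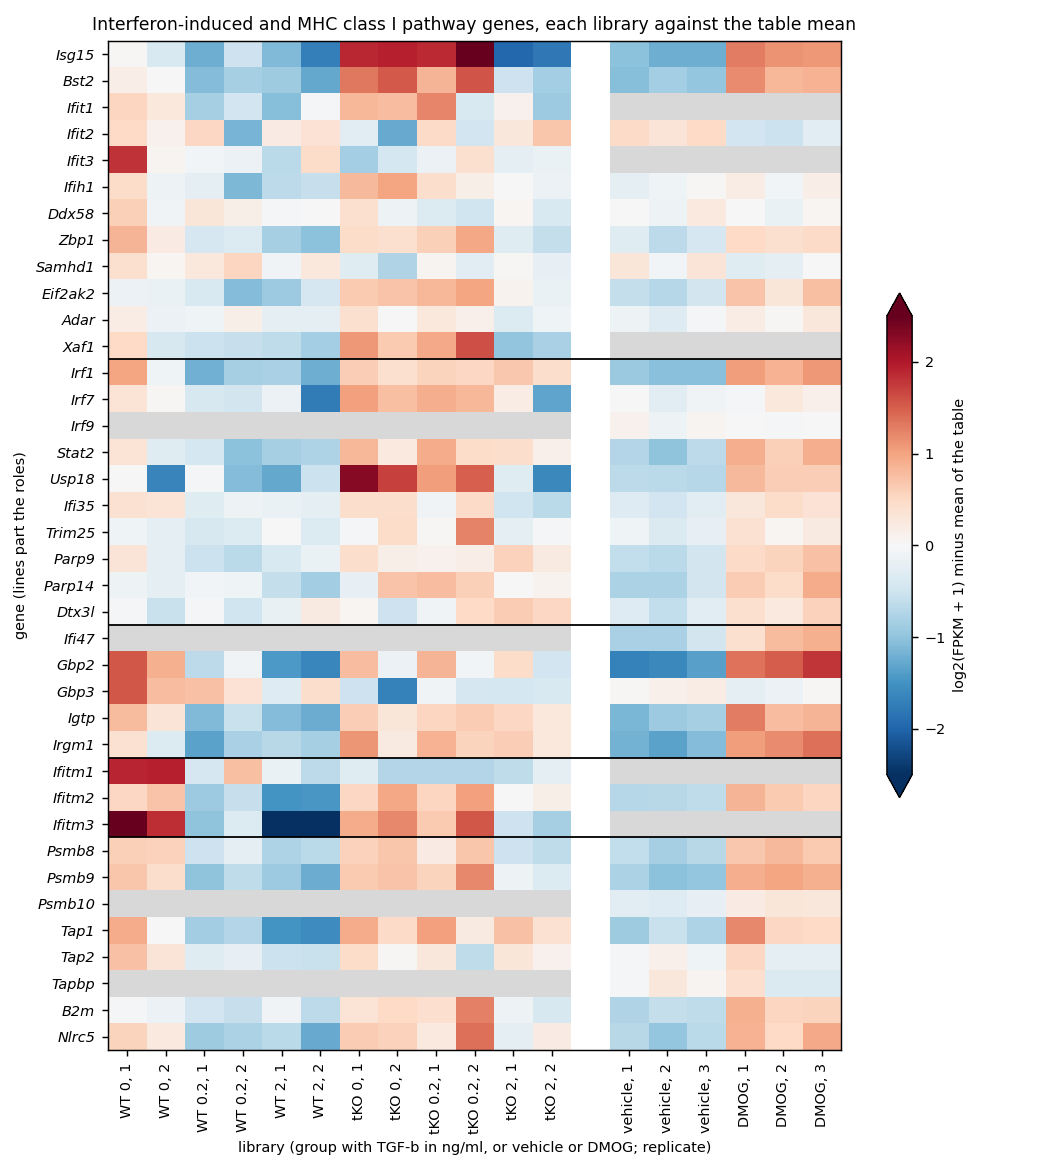
Level of each listed gene tested in at least 1 experiment, as log2(FPKM + 1) minus the gene's mean over the libraries of that experiment (rows are genes, with lines between roles; columns are libraries; grey marks genes not tested there). In the left block, Isg15 and Bst2 are high in tKO at 0 and 0.2 ng/ml TGF-b, whereas Irf1, Igtp and Tap1 are lowest in the WT libraries with TGF-b.

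Among sensors and antiviral effectors, 6 of 12 genes tested rose over the doses and 1 fell, with a median of 0.53. Isg15 encodes a ubiquitin-like protein that is attached to other proteins during an interferon response (mm9 chr4:155573533-155574927). In WT its replicates were at 10.3 and 7.59 FPKM at 0 ng/ml, 3.78 and 6.73 at 0.2 ng/ml and 4.21 and 2.4 at 2 ng/ml. In tKO they were at 40.1 and 41.6, 39.8 and 84.9 and 1.84 and 2.22 FPKM. The tKO libraries lay above every WT library at the lower doses and below both WT libraries at 2 ng/ml. The log2 fold change was 2.09 ± 0.36, adjusted p = 0.00187 at 0 ng/ml and 3.28 ± 0.36, adjusted p = 3.95e-05 at 0.2 ng/ml, and -0.48 ± 0.36, adjusted p = 0.408 at 2 ng/ml. Over the doses it was 1.63 ± 0.21, adjusted p = 5.10e-05.

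Bst2 encodes tetherin, a membrane protein that holds budding virions to the cell (mm9 chr8:74058161-74061336). Its WT levels were 113 and 101 FPKM at 0 ng/ml, 46.5 and 56.3 at 0.2 ng/ml and 53.6 and 40.7 at 2 ng/ml. Its tKO levels were 249.8 and 291, then 182 and 298, then 69.8 and 55.4 FPKM. Like Isg15, Bst2 was highest in tKO at 0 and 0.2 ng/ml, and the genotypes drew near each other at 2 ng/ml. Its log2 fold change was 1.33 ± 0.23, adjusted p = 0.00222 without TGF-b, 2.16 ± 0.23, adjusted p = 3.67e-05 at 0.2 ng/ml and 0.40 ± 0.23, adjusted p = 0.269 at 2 ng/ml. Xaf1, an interferon-induced partner of the apoptosis inhibitor XIAP, ran from 6.53 and 3.04 FPKM in WT and 10.2 and 7.44 in tKO at 0 ng/ml to 2.45 and 1.97 and 1.67 and 2.03 at 2 ng/ml. At 0.2 ng/ml it had 2.66 and 2.59 FPKM in WT and 9.31 and 15.3 in tKO, the dose at which it was called (1.84 ± 0.34, adjusted p = 0.00282).

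Eif2ak2, the kinase PKR that halts translation on double-stranded RNA, had 5.54 and 3.03 FPKM in WT and 14.2 and 15.9 in tKO at 0.2 ng/ml. Its log2 fold change over the doses was 1.04 ± 0.16, adjusted p = 0.000352. Zbp1, a sensor of Z-form nucleic acids, rose by 0.51 ± 0.13, adjusted p = 0.00851, and Ifih1, the RNA sensor MDA5, by 0.75 ± 0.20, adjusted p = 0.0124. Samhd1, a dNTP hydrolase that limits retroviruses, went the other way. It had 143 and 111 FPKM in WT and 87.6 and 63.8 in tKO at 0 ng/ml and fell over the doses (-0.48 ± 0.12, adjusted p = 0.0115). The calls of Xaf1, Zbp1, Ifih1 and Samhd1 over the doses were lost without WT replicate 2, those of Xaf1 and Ifih1 also without tKO replicate 2, that of Ifih1 also without tKO replicate 1, and that of Samhd1 also without WT replicate 1 or tKO replicate 2, with a highest adjusted p of 0.129, 0.152, 0.162 and 0.138 over their alternatives. The IFIT genes, whose products bind viral RNA, were not called: Ifit1 was at 0.55 ± 0.30, Ifit2 at -0.18 ± 0.29 and Ifit3 at -0.48 ± 0.31 over the doses. Ddx58, the RNA sensor RIG-I, was at -0.30 ± 0.19 and Adar, an RNA-editing deaminase, at 0.12 ± 0.14, neither of them called. Oasl1, Oasl2 and Rsad2 were under the limit for testing, with at most 0.322, 1.94 and 0.151 FPKM in any library of experiment 1.

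Of the transcription factors and regulators, 5 of 9 genes tested rose over the doses and 0 fell, with a median of 0.66. Irf1, a transcription factor induced by interferon gamma (mm9 chr11:53583516-53591876), had 223 and 104 FPKM in WT at 0 ng/ml, 48.3 and 62.4 at 0.2 ng/ml and 63.2 and 47.6 at 2 ng/ml. In tKO it had 174 and 149 FPKM at 0 ng/ml, 165 and 160.3 at 0.2 ng/ml and 179 and 153 at 2 ng/ml. The genotypes overlapped without TGF-b and were apart at both doses of it, with the tKO libraries near one level throughout. The log2 fold change was 0.08 ± 0.28, adjusted p = 0.911 at 0 ng/ml, 1.55 ± 0.28, adjusted p = 0.00236 at 0.2 ng/ml and 1.58 ± 0.28, adjusted p = 0.00218 at 2 ng/ml.

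Usp18, the protease that removes ISG15 and damps the type I receptor, followed Isg15 more than Irf1. It had 40.4 and 27.1, 16.5 and 23 and 5.95 and 1.78 FPKM in tKO at 0, 0.2 and 2 ng/ml, and 7.62 and 1.71, 7.26 and 3.01 and 2.53 and 4.91 in WT. At 0 ng/ml its log2 fold change was 2.82 ± 0.55, adjusted p = 0.00483, a call lost without WT replicate 2 of that dose (highest adjusted p over its alternatives 0.0689). At 2 ng/ml the libraries overlapped, at -0.06 ± 0.55. Stat2, the STAT protein specific to type I and type III responses, rose by 1.01 ± 0.18, adjusted p = 0.000842 over the doses. Parp9 and Parp14, ADP-ribosyltransferases, rose by 0.55 ± 0.13, adjusted p = 0.00530 and by 0.66 ± 0.18, adjusted p = 0.0131. Both calls were lost without WT replicate 2, that of Parp9 also without tKO replicate 1 and that of Parp14 also without WT replicate 1 or tKO replicate 2, with a highest adjusted p of 0.0906 for Parp9 and 0.171 for Parp14. Dtx3l, the E3 ligase partner of PARP9, shares one locus with Parp9 in the table and was at 0.36 ± 0.17, adjusted p = 0.143, so the split of reads between this pair is uncertain. Irf7, Trim25 and Ifi35 were at 0.79 ± 0.28, 0.47 ± 0.18 and 0.04 ± 0.11 and were not called over the doses.

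Interferon-inducible GTPases serve the defence against intracellular microbes, and 2 of 4 tested rose while 1 fell. Igtp (mm9 chr11:58012594-58021112) had 457 and 330.1 FPKM in WT at 0 ng/ml, 123 and 179.6 at 0.2 ng/ml and 124 and 111 at 2 ng/ml. In tKO its levels were 405 and 327, 383 and 412 and 376 and 318 FPKM. Every tKO library with TGF-b was above every WT library with TGF-b, and the genotypes were close without it. The log2 fold change was -0.09 ± 0.21 at 0 ng/ml, 1.41 ± 0.21, adjusted p = 0.000557 at 0.2 ng/ml and 1.55 ± 0.21, adjusted p = 0.000315 at 2 ng/ml. Irgm1 was higher in tKO by 1.21 ± 0.17, adjusted p = 0.000144 over the doses, with 34.3 and 49.5 FPKM in WT and 162 and 130.1 in tKO at 0.2 ng/ml.

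Gbp2 and Gbp3 are guanylate-binding proteins and neighbours on mouse chromosome 3, and at 2 ng/ml the genotype difference was called for Gbp2 and not for Gbp3. Gbp2 had 778 and 489.7 FPKM in WT and 449 and 236 in tKO at 0 ng/ml, and 96.6 and 83.8 and 363 and 188 at 2 ng/ml. WT was the higher genotype without TGF-b, where the difference was not called (-0.92 ± 0.38, adjusted p = 0.176), and the lower at 2 ng/ml (1.53 ± 0.38, adjusted p = 0.0164). The Gbp2 call at 2 ng/ml was lost without either WT library or without tKO replicate 1 of that dose, with a highest adjusted p of 0.202. Gbp3 had 36.2 and 20.6, 20.2 and 15.2 and 9.20 and 16.2 FPKM in WT at 0, 0.2 and 2 ng/ml, and 7.93 and 2.96, 11.0 and 8.45 and 8.31 and 8.79 in tKO. It fell in tKO over the doses (-1.18 ± 0.22, adjusted p = 0.00135), and its difference was -2.25 ± 0.38, adjusted p = 0.00183 at 0 ng/ml. At 2 ng/ml the Gbp3 difference was -0.47 and was not called. The GBP genes are close copies of one another, so their read assignment is uncertain.

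The IFITM proteins block the fusion of enveloped viruses with cell membranes, and the 3 tested members, which lie within 1 cluster on mouse chromosome 7, had unlike profiles. Ifitm2 (mm9 chr7:148140738-148141860) had 257 and 297 FPKM in WT at 0 ng/ml, 96.0 and 120.0 at 0.2 ng/ml and 63.2 and 64.9 at 2 ng/ml, against 257 and 354, 261 and 369 and 179 and 199.6 in tKO. Ifitm3 (mm9 chr7:148195489-148196643) ran from 113 and 63.7 FPKM in WT at 0 ng/ml through 7.99 and 13.3 to 0.761 and 1.53 at 2 ng/ml. In tKO it ran from 33.3 and 40.5 through 27.2 and 52.2 to 11.7 and 9.14 FPKM. For Ifitm3, WT was above tKO without TGF-b and below it at both doses. Its log2 fold change was -1.19 ± 0.35, adjusted p = 0.0524 at 0 ng/ml and 2.42 ± 0.35, adjusted p = 0.000520 at 2 ng/ml, and that of Ifitm2 was 0.12 ± 0.21 and 1.55 ± 0.21, adjusted p = 0.000248. Ifitm1 was scarce, with 5.27 and 5.4 FPKM in WT and 0.347 and 0 in tKO at 0 ng/ml, and fell over the doses (-1.12 ± 0.24, adjusted p = 0.00377). Some of its tKO libraries, among them both at 0.2 ng/ml, are listed at 0, which can be a failed estimate, so this fold change is uncertain. Outside WT at 0 ng/ml its 10 libraries held 0 to 1.79 FPKM, and its calls against that group follow from the limit that let it be tested.

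Genes of antigen processing and MHC class I rose in tKO, 5 of 6 tested over the doses and 0 lower, with a median of 0.77. Tap1 and Tap2 encode the transporter that carries peptides into the endoplasmic reticulum, and they lie beside the immunoproteasome genes Psmb8 and Psmb9 in the MHC region of chromosome 17. Tap1 (mm9 chr17:34324501-34334170) had 227 and 118 FPKM in WT at 0 ng/ml, 64.4 and 70.9 at 0.2 ng/ml and 41.3 and 39.0 at 2 ng/ml, and 226 and 165, 242 and 138 and 198 and 156 in tKO. At 2 ng/ml both tKO libraries were far above both WT libraries, by 2.10 ± 0.30, adjusted p = 0.000439. Tap2 was not called over the doses (0.18 ± 0.15, adjusted p = 0.418), with 57.8 and 57.0 FPKM in WT and 104 and 91.1 in tKO at 2 ng/ml.

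Psmb9, an inducible catalytic subunit of the immunoproteasome (mm9 chr17:34319029-34324275), had 304 and 257, 92.9 and 122 and 99.9 and 79.2 FPKM in WT over rising dose. Its tKO levels were 297 and 309.7, 279 and 433 and 173 and 149 FPKM. Its difference was widest at 0.2 ng/ml, at 1.70 ± 0.22, adjusted p = 0.000151, and over the doses it was 0.89 ± 0.13, adjusted p = 0.000144. Psmb8, another such subunit, was at 0.34 ± 0.10, adjusted p = 0.0288, but this call was lost in 14 of 23 alternatives (highest adjusted p 0.305), those without WT replicate 2 among them. B2m, the light chain of every MHC class I molecule, had 1269 and 1198 FPKM in WT and 2371 and 4246 in tKO at 0.2 ng/ml and rose by 0.66 ± 0.15, adjusted p = 0.00467 over the doses. Nlrc5, the transactivator of MHC class I genes, rose by 0.94 ± 0.20, adjusted p = 0.00381. The calls of B2m and Nlrc5 were lost without the WT libraries of replicate 2 (highest adjusted p 0.169 and 0.102), and kept in the other 22 of 23 alternatives.

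**Figure D2:**
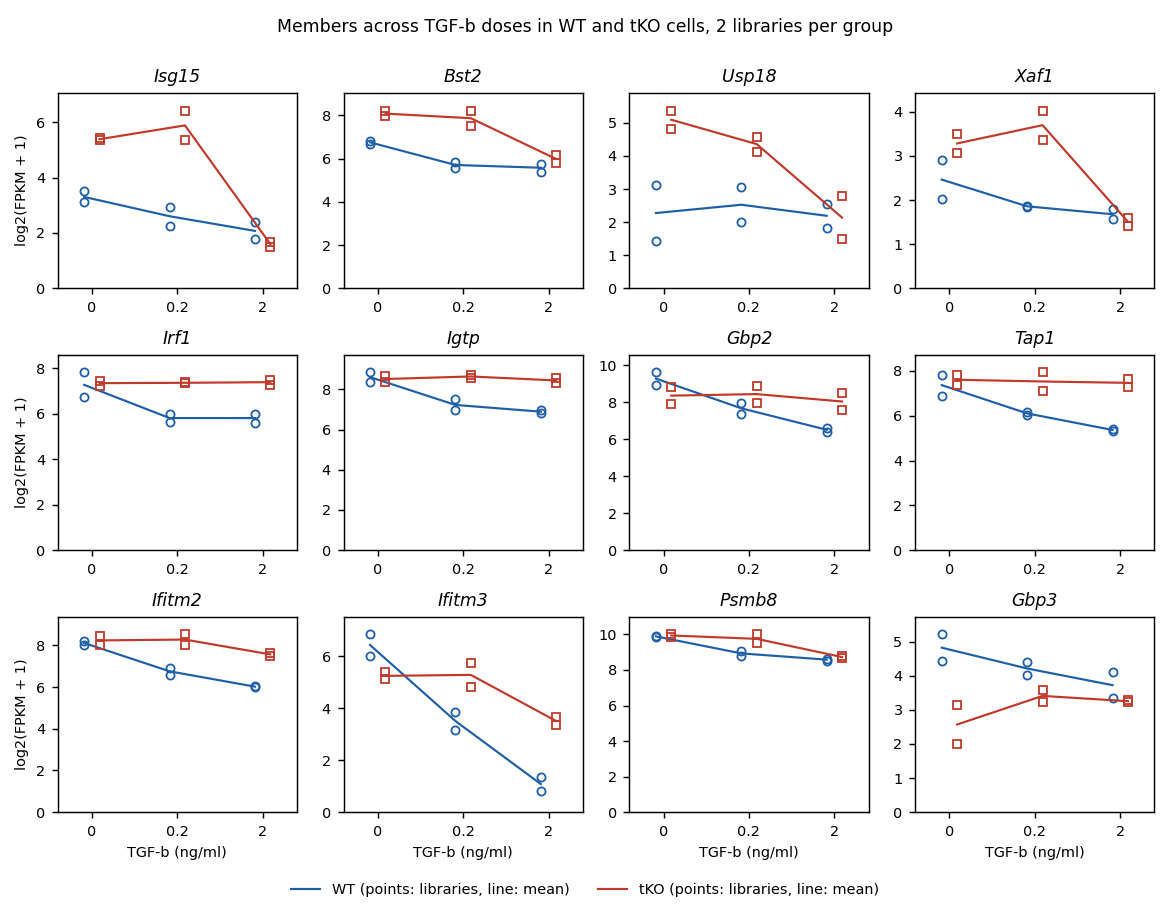
Level of selected listed genes, log2(FPKM + 1), against TGF-b (0, 0.2 and 2 ng/ml) in WT and tKO; points are libraries and lines join the group means of 2 libraries. Isg15 and Usp18 in tKO drop at 2 ng/ml, whereas Irf1, Igtp and Tap1 fall with TGF-b in WT and stay near their starting level in tKO.

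TGF-b lowered much of this pathway in WT cells. At 2 ng/ml against 0 ng/ml, 0 of 34 genes rose and 14 fell in WT (background 7.79% and 7.91%), with a median of -1.0 beside -0.02 for all genes. The 14 included Ifitm2 and Ifitm3, 5 of 6 genes of antigen processing and 2 of 4 GTPases. Ifitm3 had the largest change of the 34, a log2 fold change of -5.35 ± 0.35, adjusted p = 1.23e-06. Gbp2 was at -2.76 ± 0.38, adjusted p = 0.000424, Ifitm2 at -2.09 ± 0.21, adjusted p = 3.25e-05, Tap1 at -2.0 ± 0.30, adjusted p = 0.000718 and Igtp at -1.72 ± 0.21, adjusted p = 0.000188. Psmb9 was at -1.64 ± 0.22, adjusted p = 0.000310 and Irf1 at -1.46 ± 0.28, adjusted p = 0.00387. Ifitm1, among the 14, passed the limit only through WT at 0 ng/ml and is left aside here, as is Ifit3, which was not called, and 13 of the other 32 fell. The 2 genes with a positive value, neither called, were Dtx3l (0.32 ± 0.30) and Trim25 (0.00 ± 0.32). Leaving out WT replicate 2 at 2 ng/ml gave 9 calls in place of 14, and the call of Irf1 was among those lost (highest adjusted p 0.0559).

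At 0.2 ng/ml 7 genes fell in WT and 0 rose (background 0.676% lower and 0.918% higher), with a median of -0.77. These were Bst2, Irf1, Igtp, Ifitm2, Ifitm3, Psmb8 and Psmb9. Ifitm3 was again furthest, at -2.92 ± 0.35, adjusted p = 0.000935, and kept its call in every alternative, whereas the others lost theirs in 3 to 11 of 18. With the labelled replicate as a random factor 11 were called in place of 7, with Gbp2, Tap1, Zbp1 and Ifitm1 added. The count was 2 without WT replicate 1 at 0 ng/ml, 1 without WT replicate 1 at 0.2 ng/ml, 12 without tKO replicate 1 and 13 without tKO replicate 2 at 0.2 ng/ml.

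In tKO cells 0.2 ng/ml TGF-b moved none of the 34 genes past the limma threshold (background 1.70% higher and 0.782% lower), and 1 gene, Gbp3, had an unadjusted p under 0.05. The median was 0.07. With tKO replicate 1 at 0.2 ng/ml left out, limma called 3. At 2 ng/ml 0 genes rose and 10 fell in tKO (background 7.59% and 10.4%), with a median of -0.39. Isg15 fell by most, at -3.79 ± 0.36, adjusted p = 3.09e-05, followed by Usp18 (-2.96 ± 0.55, adjusted p = 0.00325), Bst2 (-2.10 ± 0.23, adjusted p = 0.000113) and Xaf1 (-1.77 ± 0.34, adjusted p = 0.00403). Ifitm3 was at -1.74 ± 0.35, adjusted p = 0.00523, Psmb8 at -1.21 ± 0.18, adjusted p = 0.000821 and Ifi35, an interferon-induced leucine zipper protein, at -1.02 ± 0.19, adjusted p = 0.00344. Psmb9 was at -0.91 ± 0.22, adjusted p = 0.0119. Irf1 (0.04 ± 0.28), Igtp (-0.07 ± 0.21), Tap1 (-0.14 ± 0.30) and Gbp2 (-0.32 ± 0.38) were close to 0 in tKO and were not called. Leaving out tKO replicate 2 at 2 ng/ml gave 4 calls in place of 10, with Usp18, Ifi35, Ifitm3 and Psmb9 among those lost (highest adjusted p 0.0619, 0.0507, 0.0695 and 0.114), and without tKO replicate 2 at 0 ng/ml 6 were called.

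The genotype difference of the TGF-b effect was tested directly, as the 2 minus 0 ng/ml effect in tKO minus that in WT. It was positive and called for 6 of 34 genes (Ifitm1, which passed the limit only through WT at 0 ng/ml, among them; 5 of 32 without it and Ifit3) and negative and called for 1 (background 1.55% and 1.43%), with a median of 0.52 beside -0.02 for all genes. The positive ones were Ifitm3 (3.61 ± 0.50, adjusted p = 0.00235), Igtp (1.65 ± 0.30, adjusted p = 0.0116), Ifitm2 (1.42 ± 0.29, adjusted p = 0.0218), Gbp2 (2.45 ± 0.54, adjusted p = 0.0322), Tap1 (1.86 ± 0.43, adjusted p = 0.0365) and Ifitm1 (2.43 ± 0.60, adjusted p = 0.0466). Each of them fell with TGF-b in WT, and its change in tKO was smaller or not called. Isg15 was the negative one (-2.56 ± 0.50, adjusted p = 0.0177), since it fell further in tKO than in WT. Irf1 (1.5 ± 0.40, adjusted p = 0.0608) and Usp18 (-2.88 ± 0.78, adjusted p = 0.0642) missed the threshold, as did Bst2 (-0.93 ± 0.33, adjusted p = 0.150). With the labelled replicate as a random factor Irf1 and Usp18 were called (limma adjusted p = 0.0351 and 0.0386). Of the 7, Ifitm3 alone kept its call in all 18 alternatives. The count was 2 without WT replicate 1 at 0 ng/ml, without either WT library at 2 ng/ml or without tKO replicate 2 at 0 ng/ml, 1 without tKO replicate 1 and 3 without tKO replicate 2 at 2 ng/ml.

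**Figure D3:**
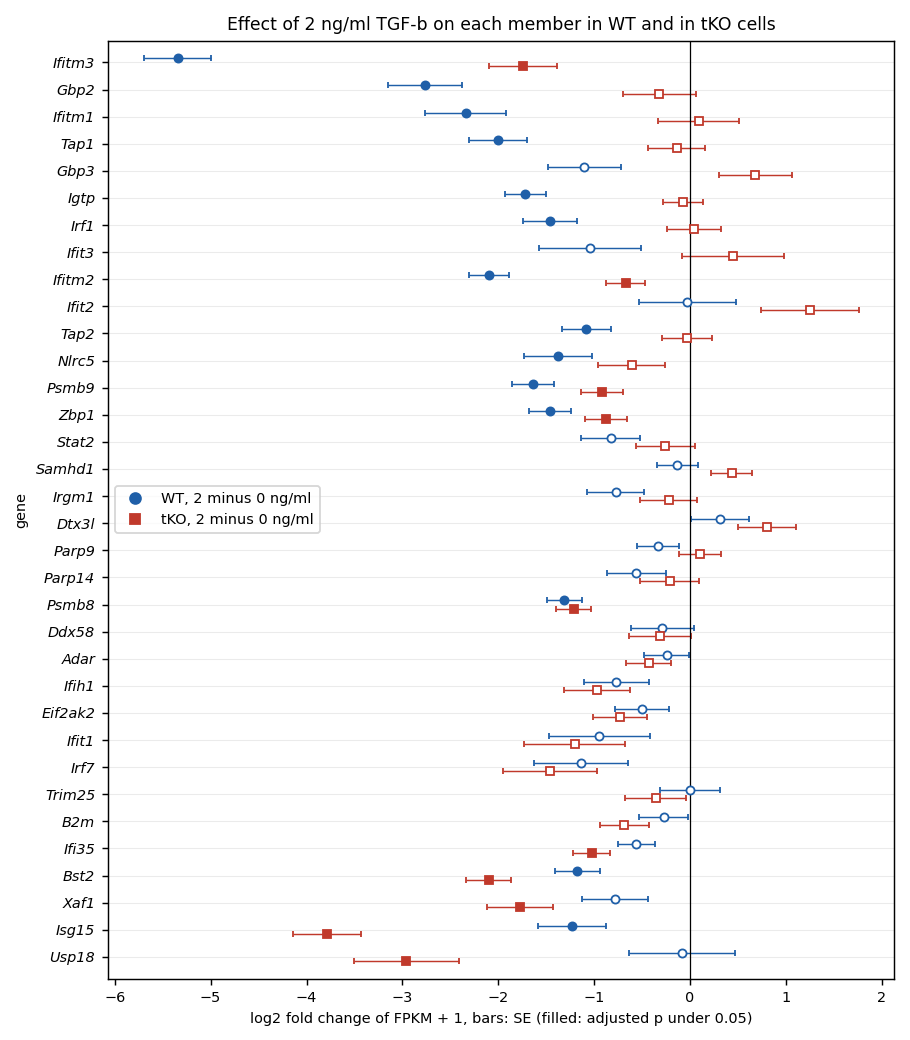
Log2 fold change of 2 minus 0 ng/ml TGF-b (x axis) in WT (circles) and tKO (squares) for the 34 listed genes tested in experiment 1 (y axis, ordered by the genotype difference); bars are SE and filled marks have an adjusted p under 0.05. Ifitm3, at the top, is at -5.35 in WT and -1.74 in tKO, and Isg15, near the bottom, at -1.23 and -3.79.

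DMOG raised most of the pathway in wildtype cells at 2 ng/ml TGF-b. Of 33 genes tested in experiment 2, 24 rose and 2 fell, where 27.7% of all 9884 genes tested rose and 33.2% fell. The median of the 33 genes was 1.19 beside -0.03 for all genes. Isg15 and Usp18 reached the limit only through the DMOG libraries, so their rise was built in, and 22 of 31 rose without them. By role, 5 of 9 sensors and effectors rose and 2 fell, 8 of 10 transcription factors and regulators rose, 4 of 5 GTPases rose, the 1 tested IFITM gene rose and 6 of 8 genes of antigen processing rose. The largest rise was that of Gbp2, from 26.1, 27.4 and 32.9 FPKM with vehicle to 223, 249 and 298 with DMOG. Irgm1 went from 24.1, 21.7 and 26.1 to 117, 128 and 148 FPKM, and Igtp from 112, 134 and 140.3 to 607, 426 and 449.6. For each of these GTPases every DMOG library was above every vehicle library, with log2 fold changes of 3.11 ± 0.13, adjusted p = 1.47e-12, 2.4 ± 0.12, adjusted p = 1.76e-11 and 1.92 ± 0.14, adjusted p = 1.90e-09. Ifi47, another GTPase of this family, rose by 1.38 ± 0.14, adjusted p = 1.62e-07, and Gbp3 was at -0.23 ± 0.11, adjusted p = 0.0807.

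Irf1 went from 38.3, 35.5 and 35.6 FPKM with vehicle to 154, 136 and 158 with DMOG, and Stat2 from 8.54, 6.82 and 9.03 to 28.6, 22.8 and 28.4. Their groups did not overlap, and the log2 fold changes were 2.0 ± 0.11, adjusted p = 5.91e-11 and 1.60 ± 0.13, adjusted p = 8.90e-09. Usp18 rose by 1.36 ± 0.10, adjusted p = 3.17e-09, Parp14 by 1.35 ± 0.13, adjusted p = 1.64e-07 and Parp9 by 1.17 ± 0.11, adjusted p = 1.21e-07. Irf9 and Irf7, partners in the type I response, were at -0.04 ± 0.11, adjusted p = 0.784 and 0.24 ± 0.11, adjusted p = 0.0685, and were the 2 regulators not called. Among the effectors, Isg15 was low in both groups, from 0.356, 0.188 and 0.192 FPKM to 5.69, 5.00 and 4.86, and rose by 2.31 ± 0.10, adjusted p = 3.65e-12. Bst2 went from 27.4, 31.6 and 29.0 to 133, 105 and 106 FPKM, a rise of 1.93 ± 0.12, adjusted p = 3.60e-10. Ifit2 fell by 0.87 ± 0.11, adjusted p = 2.69e-06, from 4.56, 3.94 and 4.59 to 1.84, 1.72 and 2.27 FPKM. Samhd1 fell by 0.37 ± 0.13, adjusted p = 0.0181, with a highest adjusted p of 0.0897 without single vehicle libraries (replicate 1 or 3) or without the limit on low values. Samhd1 has 2 entries in this table that moved unlike each other, one at 45.6, 37.5 and 44.4 FPKM with vehicle and 13.1, 11.0 and 14.8 with DMOG, the other at 56.5, 40.9 and 58.4 with vehicle and 53.6, 58.5 and 66.4 with DMOG.

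In antigen processing Psmb9 went from 58.6, 49.2 and 51.2 FPKM to 192, 203 and 189, a log2 fold change of 1.86 ± 0.11, adjusted p = 1.69e-10. Psmb8 rose by 1.43 ± 0.11, adjusted p = 5.56e-09, Nlrc5 by 1.55 ± 0.13, adjusted p = 1.67e-08, B2m by 1.32 ± 0.11, adjusted p = 2.63e-08 and Psmb10, the remaining inducible proteasome subunit, by 0.53 ± 0.11, adjusted p = 0.000382. Tap1 had 75.8, 95.4 and 81.4 FPKM with vehicle and 323, 201 and 199 with DMOG (1.47 ± 0.16, adjusted p = 4.45e-07). Tap2 and Tapbp, the tapasin gene, were at 0.01 ± 0.17, adjusted p = 0.944 and -0.21 ± 0.17, adjusted p = 0.313. All 3 of these genes were highest in DMOG replicate 1, where Tapbp stood at 243 FPKM beside 139 in the other DMOG libraries. The 8 listed genes under the limit in experiment 2 were Ifit1, Ifit3, Oasl1, Oasl2, Rsad2, Xaf1, Ifitm1 and Ifitm3, with at most 1.30 FPKM each. Beside these rises, the sums of T cell, of B cell and of myeloid and dendritic markers were lower with DMOG, as given above. Cd8a was higher and Cd8b1 was not called, and the part of all these markers was not tested.

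The tKO effect at 2 ng/ml TGF-b and the DMOG effect share the TGF-b dose but no library and no table, so their values are set side by side only. Of 29 listed genes tested in both, 8 were higher in tKO at 2 ng/ml, and all 8 were also higher with DMOG, where 22 of the 29 were higher. Of all genes tested, 7.82% were higher in tKO at 2 ng/ml and 27.7% with DMOG. The share higher in both was not worked out over all genes, so the overlap shows nothing particular to the listed genes. The 8 are Irf1, Stat2, Gbp2, Igtp, Irgm1, Ifitm2, Psmb9 and Tap1. The 22 include Isg15 and Usp18, whose rise with DMOG was built in, since only the DMOG libraries carried them past the limit for testing. In tKO the calls of Irf1, Igtp, Ifitm2 and Tap1 held in all 18 alternatives. Those of Stat2 and Irgm1 were lost when any one library of that dose was left out, that of Psmb9 without WT replicate 2 or either tKO library, and those of Stat2, Irgm1, Psmb9 and Gbp2 without the limit on low values (highest adjusted p 0.202, 0.143, 0.158 and 0.202 in that order). Gbp2 was at 1.53 ± 0.38 in tKO and 3.11 ± 0.13 with DMOG, Irgm1 at 1.19 ± 0.30 and 2.4 ± 0.12, Igtp at 1.55 ± 0.21 and 1.92 ± 0.14, and Tap1 at 2.10 ± 0.30 and 1.47 ± 0.16. Isg15, Bst2 and Usp18 rose with DMOG, a rise built in for Isg15 and Usp18. In tKO at this dose they were at -0.48 ± 0.36, 0.40 ± 0.23 and -0.06 ± 0.55, none of them called. Ifitm3, called in tKO, had only 1.25, 0.878 and 1.15 FPKM with vehicle and 1.04, 0.326 and 1.12 with DMOG and was not tested there.

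**Figure D4:**
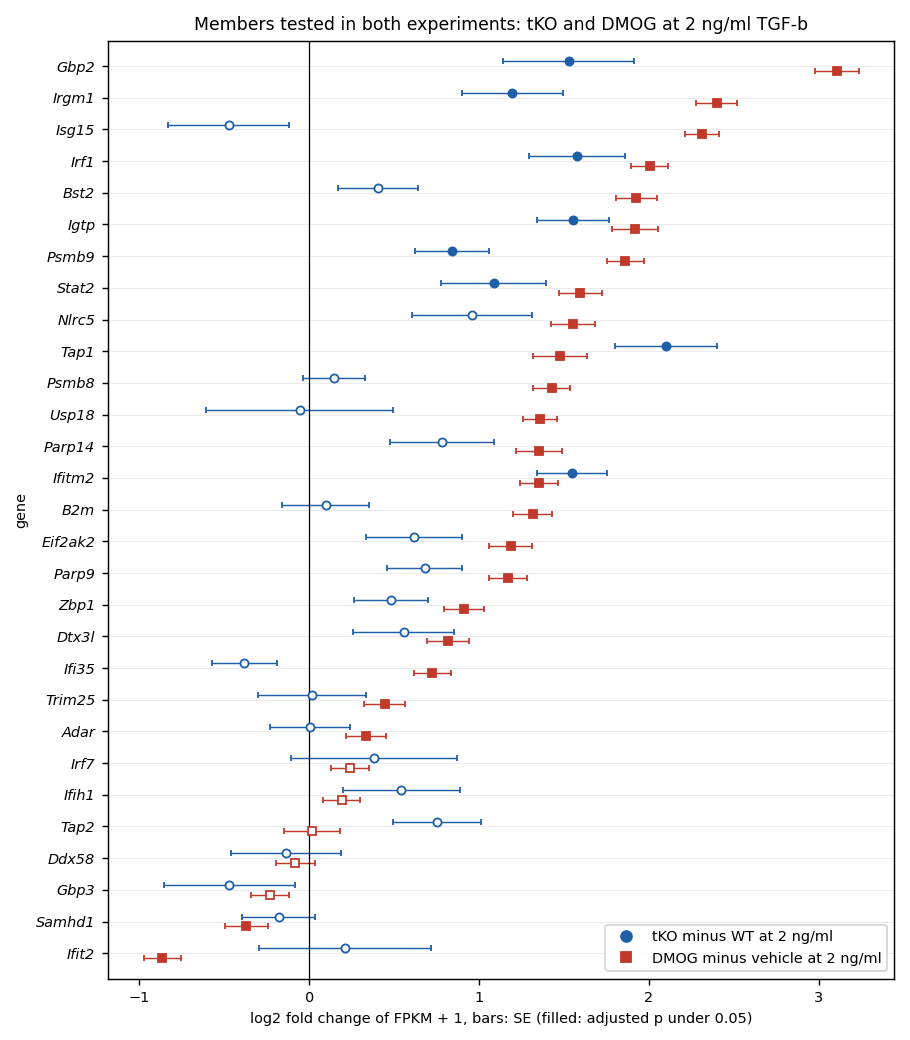
Log2 fold change (x axis) of tKO minus WT (circles) and of DMOG minus vehicle (squares), both at 2 ng/ml TGF-b, for the 29 listed genes tested in both experiments (y axis, ordered by the DMOG value); bars are SE and filled marks have an adjusted p under 0.05. Gbp2, Irgm1, Irf1 and Igtp are high in both. Isg15, tested in experiment 2 only through the DMOG libraries, is at 2.31 with DMOG and -0.48 in tKO.

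The 4 joint entries of experiment 1 were fitted as named, since their reads cannot be given to one gene. The entry of Ifi47 with Olfr56 was higher in tKO over the doses (0.56 ± 0.10, adjusted p = 0.00114). The entries of Irf9 with Rnf31 (0.21 ± 0.11, adjusted p = 0.155), Psmb10 with Ctrl (0.37 ± 0.13, adjusted p = 0.0579) and Tapbp with Zbtb22 (-0.06 ± 0.11, adjusted p = 0.738) were not called. That of Psmb10 fell at 2 ng/ml TGF-b in WT (-0.84 ± 0.23, adjusted p = 0.0254) and in tKO (-0.91 ± 0.23, adjusted p = 0.0159).

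Further genes of the pathway were read from 5 lists. Among 22 interferon ligands, 20 were in the table of experiment 1 and only Ifng, encoding interferon gamma, reached the limit for testing. Ifng had 2.47 and 0.969 FPKM in WT at 0 ng/ml, was listed at 0 in both WT libraries at 0.2 ng/ml, and had 0.0695 and 0 at 2 ng/ml. In tKO it had 18.8 and 32.0, 11.7 and 28.1 and 32.6 and 2.30 FPKM. All tKO libraries but one were above every WT library by a wide margin, and the remaining one, replicate 2 at 2 ng/ml, was close to the highest WT value. The log2 fold change over the doses was 3.63 ± 0.44, adjusted p = 3.85e-05, uncertain in size because WT values listed at 0 can be failed estimates. Ifng reached the limit for testing in experiment 1 only through the tKO libraries, so a difference in this direction was built in. The tKO library of replicate 2 at 2 ng/ml had Irf1, Igtp and Tap1 at 153, 318 and 156 FPKM, beside 179, 376 and 198 in its replicate. Other listed genes were much lower there, with Gbp2 at 188 against 363 FPKM, Usp18 at 1.78 against 5.95, Irf7 at 2.39 against 8.58 and Ifit1 at 0.172 against 1.36. Gbp2 was lower in tKO replicate 2 at the other doses too, at 236 against 449 FPKM at 0 ng/ml and 249.7 against 476 at 0.2 ng/ml. Ifit1 and Irf7 were also lower there at both doses, and Usp18 was lower at 0 and higher at 0.2 ng/ml. At these doses Ifng itself was higher in replicate 2, and a link between Ifng and the levels of these genes was not tested. In all, 23 of the 34 genes tested were lower in tKO replicate 2 at 2 ng/ml than in its replicate. The share over all genes tested was not worked out, so this count shows nothing particular to the listed genes. The genes named for this library were chosen after their values were seen. With DMOG, Ifng went from 0.134, 0.118 and 0.0688 to 44.5, 43.5 and 34.9 FPKM (5.24 ± 0.11, adjusted p = 5.99e-16), and reached the limit for testing through the DMOG libraries alone. The type I ligands stayed near 0, with a highest value of 0.661 FPKM for Ifna6 in experiment 1 and of 0.0808 for Ifnk in experiment 2, and Ifnb1 was listed at 0 in all 12 libraries of experiment 1. The type III ligand Ifnl2 reached 1.145 FPKM in experiment 1, where 11 libraries listed it at 0. In experiment 2 it reached 0.806 FPKM, and 3 libraries listed it at 0. Ifnl3 reached 0.721 and 0.0683 FPKM in experiments 1 and 2.

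Of 17 genes for interferon receptors and signalling, 5 rose and 5 fell in tKO over the doses (median 0.04, background 13.9% and 13.3%). Ifngr1, the ligand-binding chain of the interferon gamma receptor, had 133 and 101 FPKM in WT and 30.7 and 26.4 in tKO at 0 ng/ml and fell by 1.62 ± 0.12, adjusted p = 5.27e-07. Jak2, the kinase bound to the receptor's other chain, rose by 1.07 ± 0.11, adjusted p = 1.18e-05, while Jak1 fell by 0.54 ± 0.12, adjusted p = 0.00383. Irf8 (1.4 ± 0.14, adjusted p = 8.08e-06) and Socs1 (0.85 ± 0.15, adjusted p = 0.000899), a feedback inhibitor of JAK kinases, rose. The type I receptor chains Ifnar1 and Ifnar2 were at -0.36 ± 0.16, adjusted p = 0.115 and -0.31 ± 0.10, adjusted p = 0.0290. With DMOG 7 of the 17 rose and 6 fell (background 27.7% and 33.2%, so the share that fell is near it), with Socs3 at 1.99 ± 0.14, Socs1 at 1.92 ± 0.14, Irf8 at 1.77 ± 0.11 and Jak2 at 1.1 ± 0.13 among the risen, and Ifngr1 at -1.72 ± 0.15 among the fallen.

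**Figure D5:**
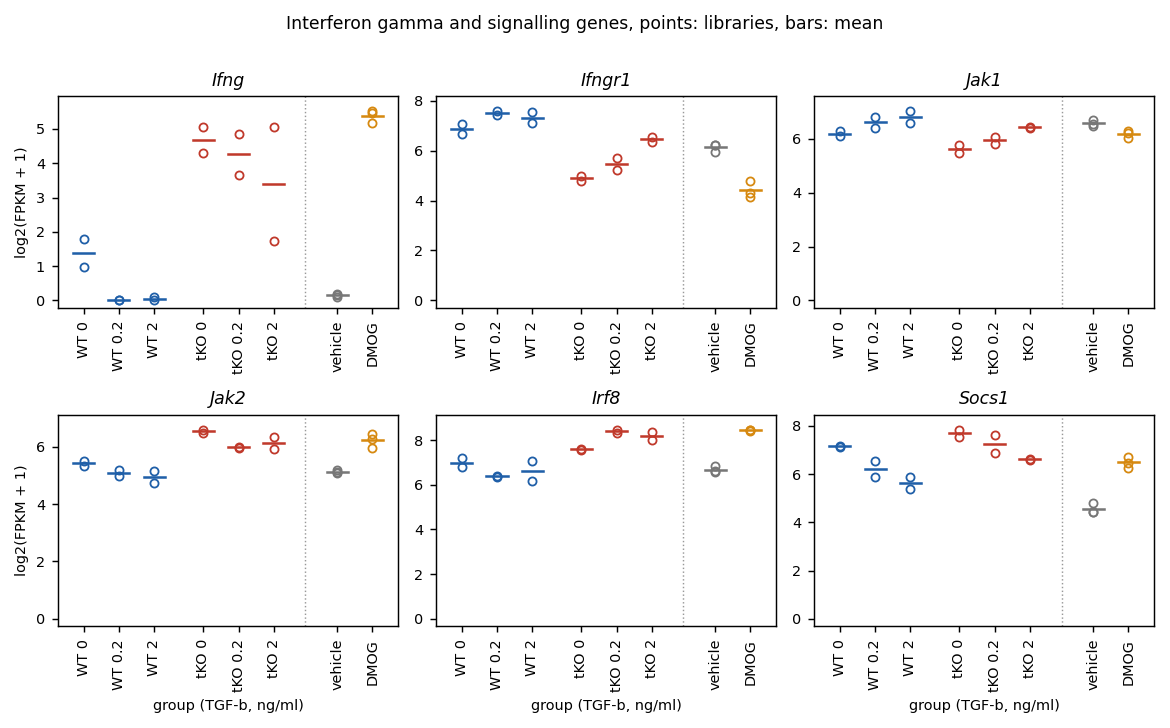
Level, log2(FPKM + 1), of Ifng and of 5 signalling genes in every library, by group (TGF-b in ng/ml for experiment 1, vehicle and DMOG at 2 ng/ml for experiment 2); points are libraries and bars group means. Ifng is high in tKO and with DMOG, and Ifngr1 is low in tKO at 0 ng/ml and with DMOG.

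Of 17 further genes of MHC class I presentation tested in experiment 1, 9 rose and 0 fell in tKO over the doses (median 0.40, background 13.9% and 13.3%). H2-Q2, among the 9, had at most 0.311 FPKM in WT. It reached the limit for testing only through the tKO libraries, so its rise was built in. Tapbpl, a peptide editor, rose by 1.07 ± 0.13, adjusted p = 2.78e-05, the classical heavy chain gene H2-K1 by 0.75 ± 0.12, adjusted p = 0.000344 and the proteasome activator Psme2 by 0.83 ± 0.13, adjusted p = 0.000312. In WT, 2 ng/ml TGF-b lowered 6 of the 17 and raised 0 (background 7.91% and 7.79%), among them Tapbpl (-1.39 ± 0.22, adjusted p = 0.000931) and H2-K1 (-0.98 ± 0.20, adjusted p = 0.00589). DMOG raised 17 of 23 and lowered 0 (background 27.7% and 33.2%), with Psme2 at 1.49 ± 0.11 and H2-Q7 at 2.55 ± 0.16. H2-Q6, among the 17, had 0.844, 0.218 and 0.572 FPKM with vehicle. Only the DMOG libraries carried it past the limit, so its rise was built in. The H2 genes are near-identical in parts, so their levels are uncertain.

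Of 43 other interferon-induced genes, 15 rose and 6 fell in tKO over the doses (median 0.28, background 13.9% and 13.3%). Iigp1, a GTPase related to Igtp, was furthest at 2.81 ± 0.24, adjusted p = 1.19e-06. In WT, TGF-b at 2 ng/ml lowered 14 and raised 3 of the 43 (background 7.91% and 7.79%). Gbp5 (-3.18 ± 0.41) and Iigp1 (-3.14 ± 0.41) fell, whereas Apol9a (3.72 ± 0.43) and Apol9b (3.63 ± 0.28), close copies of each other, rose. DMOG raised 20 and lowered 15 of 46 (background 27.7% and 33.2%, so the share lowered is near it), with Iigp1 at 4.80 ± 0.14 and Apol9a at -2.94 ± 0.11. Mnda, among the 20, had 0.861, 1.06 and 1.02 FPKM with vehicle and reached the limit only through the DMOG libraries. Of 15 genes for nucleic acid sensing, 4 rose and 3 fell in tKO over the doses (median 0.22, background 13.9% and 13.3%), with Irf5 at 1.13 ± 0.14 and Rnf125 at -0.90 ± 0.17, and with DMOG 5 rose and 7 fell of 16 (background 27.7% and 33.2%). Tlr9, among the 7, had at most 0.0859 FPKM with DMOG. Only the vehicle libraries carried it past the limit, so its fall was built in. Genes of these lists without printed values were not checked for this.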

How the data were processed

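Polyadenylated RNA from RNeasy preparations was turned into libraries with Clontech's SMARTer Ultra low input chemistry, which does not mark strand, per the labels' protocols. Of tools, Cufflinks, Cuffdiff, TopHat and Trimmomatic are named in the submitters' processing notes, with mm9 as the build and no versions. The authors deposited FPKM values per library in 1 table for each experiment, per the file headers, so no test crosses the tables. FPKM is relative to the library total, and entries that join overlapping genes were kept apart. After 18 and 291 exact duplicates were dropped, entries of a symbol were summed. Genes that averaged 1 FPKM or more were tested on log2(FPKM + 1) with limma 3.58.1 in R 4.3.3, with a mean-variance trend and 1 mean per group, over all 12 libraries of experiment 1 or all 6 of experiment 2. The adjusted p threshold was 0.05, two-sided. The fit was tested on simulated data with 200 changed genes. The pseudocount understates fold changes of low genes. The close paralogs among the IFITM, IFIT, GBP and related GTPase genes can share reads. Named genes are, per comparison, the 8 called listed genes with the largest fold change, and, per pathway list, the 4 with the smallest p; others named were chosen after their values were seen or belong to the core signalling genes. One gene of the list of receptors and signalling is not reported here. The members, pathway lists and tests were chosen with earlier results of these data known. Alternatives tried were another pseudocount, no limit on low values, quantile normalization, joint entries added, a replicate block, the labelled replicate number as a random factor or as 1 mean per number, and each library or replicate number left out.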

Additional observations from a re-analysis of the deposited data

Results flagged for a closer look

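For 7 of the 34 listed genes the effect of 2 ng/ml TGF-b against 0 ng/ml differed between tKO and WT in the test of the difference itself (limma, adjusted over all genes). The difference, tKO minus WT, was 3.61 ± 0.50, adjusted p = 0.00235 for Ifitm3, 1.65 ± 0.30, adjusted p = 0.0116 for Igtp, 1.42 ± 0.29, adjusted p = 0.0218 for Ifitm2 and 2.45 ± 0.54, adjusted p = 0.0322 for Gbp2. It was 1.86 ± 0.43, adjusted p = 0.0365 for Tap1 and 2.43 ± 0.60, adjusted p = 0.0466 for Ifitm1, whose tKO libraries are partly listed at 0 and which passed the limit for testing only through WT at 0 ng/ml. Isg15 had the opposite sign, at -2.56 ± 0.50, adjusted p = 0.0177. The highest adjusted p over 18 alternatives was 0.0365 for Ifitm3, 0.0806 for Igtp, 0.0921 for Isg15, 0.127 for Ifitm2, 0.164 for Gbp2, 0.169 for Tap1 and 0.190 for Ifitm1. No group has 4 or more libraries, so single libraries were not tested as outliers.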

How the results depend on the processing

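No called fold change of a listed gene reversed its direction under any alternative run. The number of listed genes called stayed within 1.5 times the reported count with a pseudocount of 0.1, with quantile normalization, and with joint entries added. With 1 mean per labelled replicate number, run for tKO against WT over the doses alone, it was 21 in place of 23. Without the limit on low values the count fell to 5 from 9 for tKO against WT at 2 ng/ml, to 1 from 7 for 0.2 minus 0 ng/ml in WT, and to 1 from 7 for the genotype difference of the TGF-b effect, where more genes were tested. With the labelled replicate (WT1, WT2, tKO1 and tKO2) as a random factor the count for 0.2 minus 0 ng/ml in WT was 11. A replicate block gave the same count of 11 there, 24 in place of 23 over the doses and 27 in place of 26 for DMOG. Samples that share a number do not deviate together in every pair (r of 0.255, 0.0610 and 0.0429 between WT and tKO at 0, 0.2 and 2 ng/ml, and -0.142, -0.194 and 0.443 between vehicle and DMOG), so the numbers were not taken as pairs across genotypes or treatments. Across doses the same labelled replicate gave r of 0.416, 0.127 and 0.110 in tKO, all over 0.1, and of 0.186, 0.0573 and 0.0899 in WT. In tKO, 10 listed genes were called at 2 minus 0 ng/ml without and 12 with the random factor, and 0 at 0.2 minus 0 ng/ml either way. With single libraries or replicate numbers left out, counts ranged from 14 to 25 for tKO against WT over the doses, from 5 to 12 at 2 ng/ml, from 1 to 13 for 0.2 minus 0 ng/ml and from 9 to 15 for 2 minus 0 ng/ml in WT. They ranged from 0 to 3 and from 4 to 11 for the same contrasts in tKO, and from 1 to 10 for the genotype difference. For DMOG they ranged from 25 to 28. Where an arm was left with 1 library, that library was assumed to vary like the others. Except for the added genes under the dropped limit, the cause of these shifts was not tested. Depth is unknown in absolute terms, and genes near 1 FPKM such as Ifitm1 rest on few reads.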
